A study of Homo sapiens with 8 samples.

Results

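Transcripts of 9 adherens junction genes, of 23686 genes in the deposited tables, were followed across 2 human triple-negative breast cancer cell lines with and without depletion of GPX1. They were chosen by gene symbol and are the 5 cadherins CDH1, CDH2, CDH4, CDH11 and CDH13 and the 4 catenins CTNNA1, CTNNB1, CTNND1 and JUP. The RNA-seq series holds 8 libraries of total RNA in 4 groups of 2: Hs578T control, Hs578T siGPX1, MDA-MB-231 control and MDA-MB-231 siGPX1 (HS578T and siGpx1 in the labels). Depleted libraries are titled siGpx1 and also carry the genotype Gpx1-/-, so the labels name both a knockdown and a knockout, and they do not describe the control beyond that word or give the time after transfection. The source name and a tissue tag count upward from library to library (HS578T to HS581T, and MDA-MB-231 to MDA-MB-234), whereas the title and the cell line tag name a single line for each set of 4, and these were followed. Nothing in the labels says that the 2 libraries of a group came from separate cultures, so a p-value measures no more than the spread between such libraries, which could be technical.

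Classical cadherins are membrane proteins that bind the same or related cadherins on a neighbouring cell. Their cytoplasmic tail binds β-catenin (CTNNB1) or plakoglobin (JUP), these bind α-catenin (CTNNA1), and α-catenin links the complex to actin, while p120-catenin (CTNND1) binds closer to the membrane and holds the cadherin at the surface. Epithelial breast cells typically carry E-cadherin (CDH1), and carcinoma cells that have lost it often carry N-cadherin (CDH2) or cadherin-11 (CDH11) in its place. β-Catenin that is not held at junctions or degraded enters the nucleus and works with TCF/LEF factors in Wnt signalling.

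Of these transcripts 3, CDH11, CDH4 and CTNNA1, hold one of 2 related 7-base sequences, GGGCATC or GGCATCA, in an annotated 3′ UTR. Those sequences are shown because these 3 transcripts were also the ones that fell in MDA-MB-231. Both 7-base sequences are contained in GGGCATCA, which occurs in 5 of 6 annotated GPX1 transcripts. They were picked in earlier work on these same libraries for their association with lower expression, so the direction of the matched transcripts is not independent evidence. Sites were read from GENCODE annotation on GRCh38, on the mRNA strand only, with the match in capitals.
CDH11, 3′ UTR base 727 of 3850, chr16:64946858-64946887, minus strand: gaaaatgttacGGCATCAcacttatatttt
CDH4, 3′ UTR base 443 of 3674, chr20:61937375-61937404, plus strand: ccagctctgaaGGCATCAttcagaaatggg
CDH4, 3′ UTR base 942 of 3674, chr20:61937874-61937903, plus strand: gccccgcgacaGGCATCAattcaaacccca
CTNNA1, 3′ UTR base 429 of 945, chr5:138934507-138934536, plus strand: gtaagcaacctGGGCATCttaggaagcagt
GPX1, coding sequence, spliced across an intron within chr3:49357738-49358046, minus strand: gcaaccagtttGGGCATCAggagaacgcca

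The CDH4 matches lie in the longer of 2 annotated 3′ UTRs; the other, of 306 bases, holds none. No match was found in the 3′ UTRs of CDH1, CDH2, CDH13, CTNNB1, CTNND1 or JUP. Over all tested genes with an annotated 3′ UTR of at least 30 bases, 1898 of 13164 (14.4%) held a match, and of these 43.3% were called lower and 17.7% higher in Hs578T, with 43.8% lower and 13.6% higher in MDA-MB-231. Among the 11266 genes without a match, 19.4% were lower and 32.0% higher in Hs578T, with 19.1% lower and 23.2% higher in MDA-MB-231. The sequence of the siRNA is not given in the sources used here, and the part of these matches in the changes was not tested.

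The libraries held 12905808 to 14216365 expected counts and 15584 to 15817 detected genes. GPX1, the depleted glutathione peroxidase, read 232.17 and 232.40 TPM (a level scaled per transcript length) in the Hs578T controls and 9.52 and 9.02 after depletion. In MDA-MB-231 it read 594.21 and 634.03 TPM in the controls and 21.76 and 20.35 after depletion, so each library matched its label. The labels call both lines epithelial, yet EPCAM, an epithelial surface marker, stood at a mean of 0.110 TPM in Hs578T controls against 32.2 in MDA-MB-231 controls. Of 10 luminal epithelial markers, 4 exceeded 1 CPM in Hs578T and 7 in MDA-MB-231, and CLDN3 and CLDN7 had 0 counts in the Hs578T controls. All 10 fibroblast and mesenchymal markers exceeded 1 CPM in the Hs578T controls, and 8 of the 10 did so in the MDA-MB-231 controls. After depletion the summed luminal markers went from 226–230 to 591–657 CPM in Hs578T and from 1157–1162 to 1714–1759 in MDA-MB-231, and the summed fibroblast markers from 59348–59943 to 71928–81364 and from 2431–2451 to 3096–3122 CPM. The Hs578T luminal sum was mostly the keratin KRT18, at a mean of 190 CPM before and 583 after depletion. Of the 8 luminal markers tested, that line had 2 called higher, 1 lower and 5 not called (median log2 change 0.015). For MDA-MB-231 the calls were 4 higher, 2 lower and 2 not called (median 0.42). Of the 10 fibroblast markers 6 were higher and 2 lower in Hs578T, against 4 and 0 for the other line. The part of these marker shifts in the junction results was not tested.

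The 2 control lines carried different cadherins, whereas all 4 catenins were well above the floor in both lines, at levels that differed. Of the 5 member cadherins, Hs578T had CDH2, CDH11 and CDH13 at high levels, whereas MDA-MB-231 had CDH11, a little CDH4 and almost none of the others. Such contrasts in these bulk libraries cannot tell fewer cells of a type from less RNA per cell. All adjusted p-values below are Benjamini-Hochberg values over 14249 tested genes from the quasi-likelihood test of edgeR, unless another tool is named, and a gene was called at an adjusted p under 0.05. Log2 changes are given with their standard errors. Log2 changes, and the folds and percents of control printed beside an adjusted p, rest on CPM (counts scaled by library total) and not on TPM, so they can differ from the ratio of the TPM values that show each library. Of the 9 members, 4 were called higher in MDA-MB-231 controls, where the background over all tested genes was 43.0%, and 5 lower, where it was 38.6%. All 9 members passed the filter on low counts, CDH1 and CDH4 through the MDA-MB-231 libraries alone and CDH13 through the Hs578T libraries alone. For those 3 a line difference was therefore bound to appear, and their contrast is a description.

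CDH2, N-cadherin, the neural and mesenchymal cadherin, read 280.04 and 290.51 TPM in Hs578T controls and 0.52 and 0.43 TPM in MDA-MB-231 controls. In counts that was 13398 against 24, fitted as 649-fold lower in MDA-MB-231 (log2 difference -9.34 ± 0.11). CDH13, T-cadherin, which is held in the membrane by a GPI anchor and lacks the catenin-binding tail, read 202.25 and 192.43 TPM in Hs578T controls and 0 in both MDA-MB-231 controls. Its 8482 counts against 0 made it at least 3323-fold lower in MDA-MB-231, with the floor for a count of 0 set at 3 counts over the group. Both genes were thus abundant in every Hs578T library and at or near the detection limit in every MDA-MB-231 library.

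CDH4, R-cadherin, a classical cadherin known from retina and brain, showed the opposite pattern. It read 12.78 and 12.48 TPM in MDA-MB-231 controls and 0 and 0.06 TPM in Hs578T controls, or 934 against 2 counts, a ratio of 397 with a 95% counting interval of 110 to 3286. CDH1, E-cadherin, was scarce in both lines. The Hs578T controls had 0 counts, which allows up to 0.115 CPM over the group, and the MDA-MB-231 controls had 10 and 15 counts (0.36 and 0.53 TPM), at least 7.09-fold higher. CDH11, a cadherin of mesenchyme and bone-forming cells, was the only one of the 5 that was well above the floor in both lines. It read 266.11 and 261.01 TPM in Hs578T controls and 136.98 and 138.44 in MDA-MB-231 controls, a log2 difference of -1.07 ± 0.05 (adjusted p = 4.89e-12).

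The catenin levels of the control lines lay within a log2 difference of -0.90 to 1.23. CTNNA1 stood at 599.83 and 585.66 TPM in Hs578T controls against 455.00 and 440.63 in MDA-MB-231 controls (log2 -0.54 ± 0.03). CTNND1 stood at 187.35 and 183.77 against 113.16 and 110.48 (log2 -0.90 ± 0.04). CTNNB1 stood at 346.56 and 326.74 against 426.28 and 420.20 (log2 0.20 ± 0.03), and JUP at 20.77 and 20.09 against 49.77 and 51.61 (log2 1.23 ± 0.06). α-Catenin and p120-catenin were thus higher in Hs578T, and β-catenin and plakoglobin higher in MDA-MB-231, with no overlap between the groups for any of the 4.

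**Figure D1:**
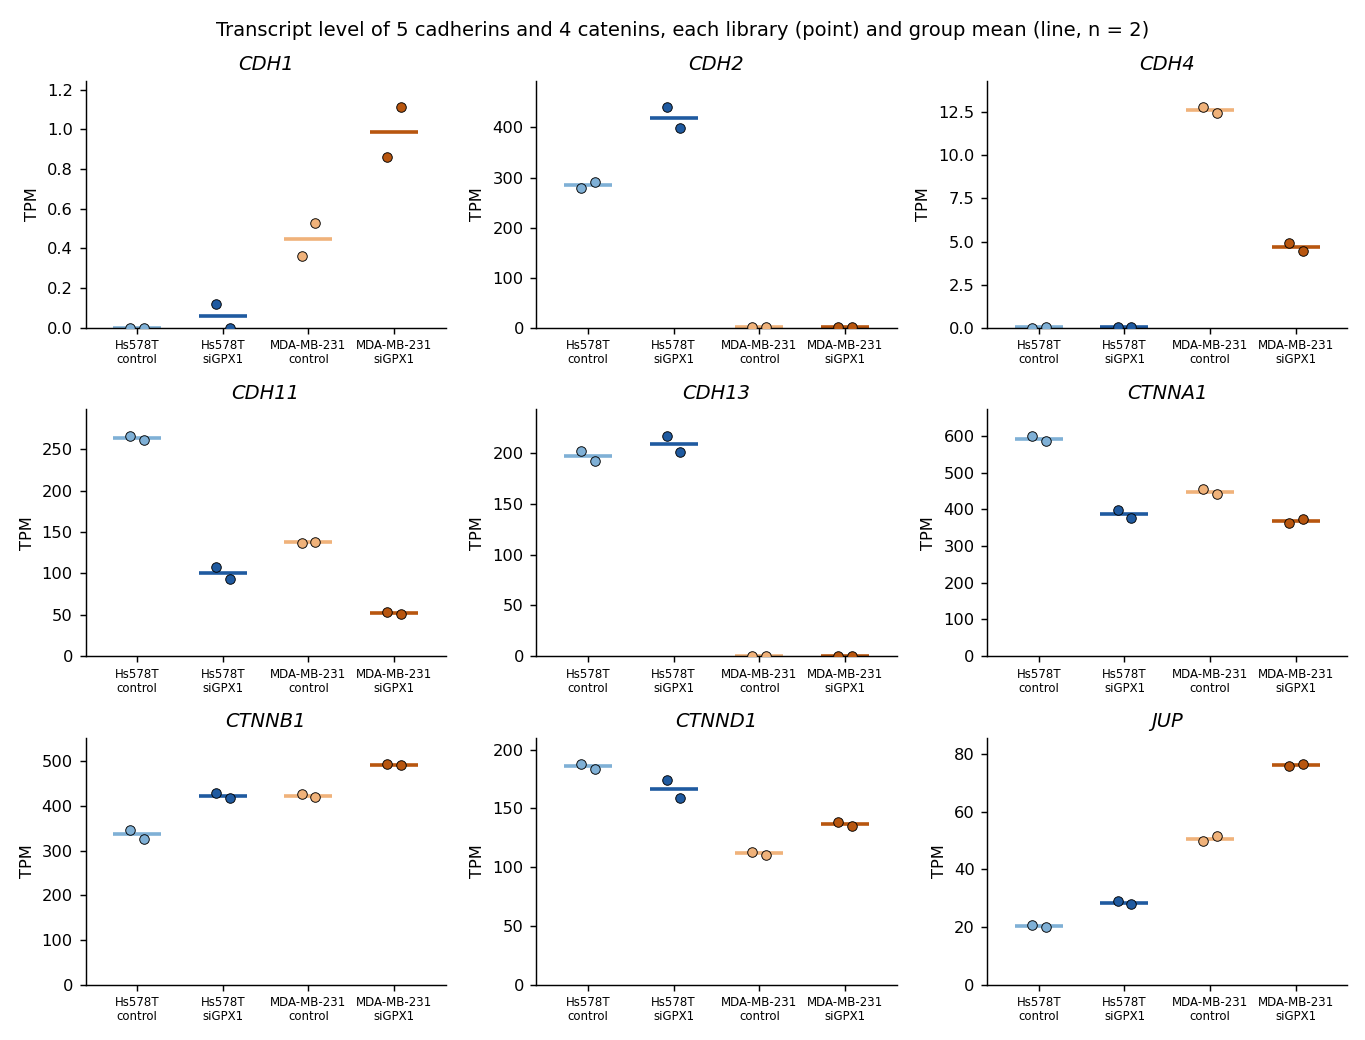
Level of each cadherin and catenin in TPM (vertical axis, a separate scale per panel) in the 4 groups; each point is 1 library and each line a group mean of 2. CDH2 and CDH13 lie near 0 in all MDA-MB-231 libraries, CDH4 near 0 in all Hs578T libraries, and CDH11 falls in both lines from 266.11 and 261.01 to 108.21 and 93.55 TPM and from 136.98 and 138.44 to 53.18 and 51.47 TPM.

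Within a library TPM also orders the members. In Hs578T controls the order from the highest was CTNNA1, CTNNB1, CDH2, CDH11, CDH13, CTNND1, JUP, CDH4 and CDH1, and neighbouring ranges overlapped only for the last pair. After depletion in Hs578T it was CTNNB1, CDH2, CTNNA1, CDH13, CTNND1, CDH11, JUP, CDH1 and CDH4, with overlap between CTNNB1 and CDH2 and between CDH1 and CDH4. In MDA-MB-231 controls it was CTNNA1, CTNNB1, CDH11, CTNND1, JUP, CDH4, CDH2, CDH1 and CDH13, with CDH2 and CDH1 overlapping. After depletion in MDA-MB-231 it was CTNNB1, CTNNA1, CTNND1, JUP, CDH11, CDH4, CDH1, CDH2 and CDH13, with CDH1 and CDH2 overlapping. CTNNA1 thus moved from first to below CTNNB1 in both lines, and CDH11 moved below CTNND1 in both.

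After depletion of GPX1 in Hs578T, CDH11 and CTNNA1 fell and CDH2, CTNNB1 and JUP rose, with smaller changes in CDH13 and CTNND1. Of the 9 members 4 rose, against a background of 28.6% of all tested genes, and 3 fell, against 22.1%; CDH1 and CDH4 were not called. The median log2 change over the 9 was 0.14, beside 0.04 over all tested genes. After depletion in MDA-MB-231, CDH11, CDH4 and CTNNA1 fell and CTNNB1, CTNND1 and JUP rose, with CDH1 and CDH2 rising from very low counts. There 5 rose, against a background of 20.7%, and 3 fell, against 21.9%, with CDH13 not called and a median log2 change of 0.28 beside 0 over all tested genes. Both member medians include fitted changes of genes at the floor of 3 counts, CDH1 and CDH4 in Hs578T and CDH13 in MDA-MB-231.

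CDH11 fell in both lines by a similar amount. In Hs578T it went from 266.11 and 261.01 to 108.21 and 93.55 TPM. In CPM 39.7% of the control level was left, a fitted fall of 2.52-fold (log2 -1.33 ± 0.05, adjusted p = 4.99e-12). In MDA-MB-231 it went from 136.98 and 138.44 to 53.18 and 51.47 TPM, with 37.8% left in CPM (a fitted fall of 2.65-fold, log2 -1.40 ± 0.05, adjusted p = 1.38e-11). All depleted libraries lay below all controls of their line, and the depleted Hs578T libraries even lay below the MDA-MB-231 controls. The difference between the lines in this change was -0.07 ± 0.07 on the log2 scale (95% interval -0.23 to 0.09, adjusted p = 0.582).

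CDH4 could be followed only in MDA-MB-231. It read 12.78 and 12.48 TPM in the controls and 4.94 and 4.47 after depletion. In CPM 36.9% of the control level was left, a fitted fall of 2.71-fold (log2 -1.44 ± 0.10, adjusted p = 1.66e-08). The groups did not overlap. In Hs578T it had 2 counts in the controls and 2 after depletion, so no fold is given there.

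CDH2 rose in Hs578T, where it was already abundant. It read 280.04 and 290.51 TPM in the controls and 439.97 and 399.49 after depletion, without overlap. In CPM the fitted rise was 1.53-fold (log2 0.61 ± 0.05, adjusted p = 1.95e-08). On the log2(TPM + 0.1) scale with limma its adjusted p was 0.0596. In MDA-MB-231 CDH2 rose from 13 and 11 counts (0.52 and 0.43 TPM) to 17 and 28 counts (0.70 and 1.22 TPM), with log2 0.98 ± 0.36 and adjusted p = 0.0406. This last call rested on few counts and was lost without MDA-MB-231 control library 1 (adjusted p = 0.0684) or 2 (0.137) or without siGPX1 library 2 (0.337).

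CDH1 also rose in MDA-MB-231, from 10 and 15 counts (0.36 and 0.53 TPM) to 23 and 28 counts (0.86 and 1.11 TPM). The groups did not overlap, and the log2 change was 1.11 ± 0.41 (adjusted p = 0.0415). The call was lost without the filter on low counts (adjusted p = 0.0568), with limma on log2(TPM + 0.1) (0.0862) and on leaving out any of 6 libraries, either Hs578T control or any MDA-MB-231 library, with adjusted p of 0.0523 to 0.214. With the filter of 5 CPM the gene was not tested, and DESeq2 gave it no adjusted p. E-cadherin and N-cadherin thus stood at about the same low level in MDA-MB-231, 0.985 and 0.960 TPM on average after depletion, far under CDH11. In Hs578T the depleted libraries had 3 and 0 CDH1 counts, at the floor; the gene was called higher there (adjusted p = 0.0352) without siGPX1 library 2, the one with 0 counts, and in no other setting run.

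CDH13 read 202.25 and 192.43 TPM in Hs578T controls and 216.80 and 201.02 after depletion, and the 2 groups' ranges overlapped. Its rise of 0.14 ± 0.05 on the log2 scale (adjusted p = 0.0246) was lost in 13 alternative settings, among them DESeq2 size factors (adjusted p = 0.0551) and the leaving out of 7 of the 8 libraries one at a time (all but Hs578T siGPX1 library 2, adjusted p 0.0707 to 0.221). In MDA-MB-231 CDH13 had 0 counts in the controls and 3 and 0 after depletion, at the floor, and was called higher (adjusted p = 0.0305) only without siGPX1 library 2.

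**Figure D2:**
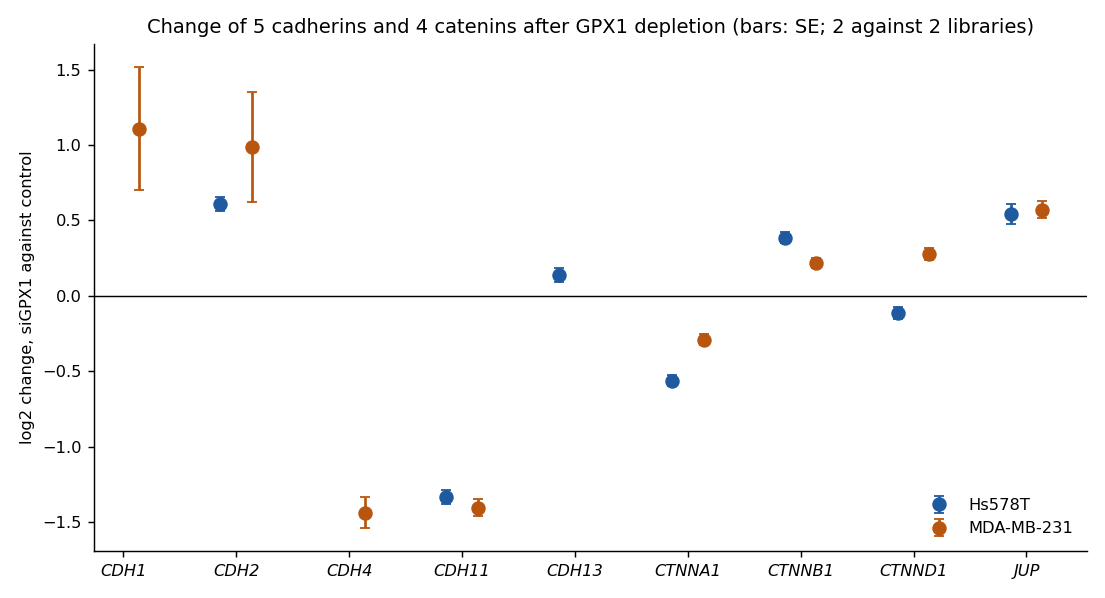
Log2 change after GPX1 depletion (vertical axis) of each cadherin and catenin in Hs578T (blue) and MDA-MB-231 (orange); bars are standard errors and each point compares 2 with 2 libraries. Genes at or under the floor of 3 counts in a line have no point there. CDH11 and CTNNA1 lie below 0 and CTNNB1 and JUP above 0 in both lines, and CTNND1 lies at -0.11 in Hs578T and 0.28 in MDA-MB-231.

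Among the catenins, CTNNA1 fell in both lines. It went from 599.83 and 585.66 to 397.39 and 376.98 TPM in Hs578T (log2 -0.56 ± 0.04, adjusted p = 2.62e-09) and from 455.00 and 440.63 to 361.84 and 374.78 TPM in MDA-MB-231 (log2 -0.29 ± 0.04, adjusted p = 7.29e-06). No depleted library reached a control of its line. The fall was smaller in MDA-MB-231 by 0.27 ± 0.05 on the log2 scale, a difference that passed the test of the interaction (adjusted p = 0.00151).

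CTNNB1 rose in both lines. It went from 346.56 and 326.74 to 429.45 and 417.36 TPM in Hs578T (log2 0.39 ± 0.03, adjusted p = 1.73e-07) and from 426.28 and 420.20 to 493.22 and 491.69 TPM in MDA-MB-231 (log2 0.22 ± 0.03, adjusted p = 9.61e-05). Every depleted library lay above the controls of its line. The smaller rise in MDA-MB-231 gave an interaction of -0.17 ± 0.05 (adjusted p = 0.0260), which was lost with DESeq2 size factors (adjusted p = 0.150), with DESeq2 (0.238), with a filter of 5 CPM (0.386), on both TPM scales (0.170 and 0.183), and without Hs578T control library 2 (0.189) or any 1 MDA-MB-231 library (0.485 to 0.520).

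JUP, plakoglobin, which can take the place of β-catenin on a cadherin tail and also serves desmosomes, rose by about the same amount in both lines. It went from 20.77 and 20.09 to 28.97 and 27.98 TPM in Hs578T and from 49.77 and 51.61 to 76.06 and 76.50 TPM in MDA-MB-231. In CPM the fitted rise was 1.46-fold in Hs578T (log2 0.54 ± 0.07, adjusted p = 6.81e-06) and 1.49-fold in MDA-MB-231 (log2 0.57 ± 0.05, adjusted p = 4.16e-07). The groups did not overlap in either line, and the difference between the lines was 0.03 ± 0.09 (95% interval -0.16 to 0.22, adjusted p = 0.88).

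CTNND1 moved in opposite directions. In Hs578T it went from 187.35 and 183.77 to 174.03 and 158.96 TPM (log2 -0.11 ± 0.04, adjusted p = 0.0255), and in MDA-MB-231 from 113.16 and 110.48 to 138.49 and 134.70 TPM (log2 0.28 ± 0.04, adjusted p = 4.64e-05). The fall in Hs578T was lost without Hs578T control library 1 (adjusted p = 0.101) or 2 (0.0559) or siGPX1 library 2 (0.125). The difference between the lines, 0.39 ± 0.06, passed the test of the interaction (adjusted p = 0.000228). Of the 9 members 2 thus had a higher change in MDA-MB-231 (CTNNA1 and CTNND1), against a background of 6.32% of tested genes, and 1 a lower change (CTNNB1), against 10.7%. For CDH2 the difference was 0.38 ± 0.37 (95% interval -0.41 to 1.16, adjusted p = 0.55), an interval wide enough to hold either line's larger rise, and for CDH1, CDH4 and CDH13 one line was at the floor. On both TPM scales limma called the difference for CDH4 (adjusted p = 0.00122 and 0.0398), with Hs578T at the floor.

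Summed over the 5 cadherins, the level in Hs578T stayed near that of the controls while its makeup shifted. The sum was 748.40 and 744.01 TPM in the controls and 765.13 and 694.09 after depletion, with overlapping ranges and a mean of 97.8% of control. CDH2 went from 38.2 ± 1.2% to 57.5 ± 0.04% of this sum (SD, n = 2), CDH11 from 35.3 ± 0.34% to 13.8 ± 0.47%, and CDH13 from 26.4 ± 0.82% to 28.6 ± 0.44%. Without CDH13, which has no catenin-binding tail, the mean sum went from 549 to 521 TPM. In MDA-MB-231 the sum itself dropped, from 150.64 and 151.88 to 59.82 and 58.27 TPM, or 39.0% of control, and CDH11 made up 91.0 ± 0.15% of it before and 88.6 ± 0.40% after depletion, with CDH4 at 8.35 ± 0.19% and 7.96 ± 0.42%. These sums were not tested.

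**Figure D3:**
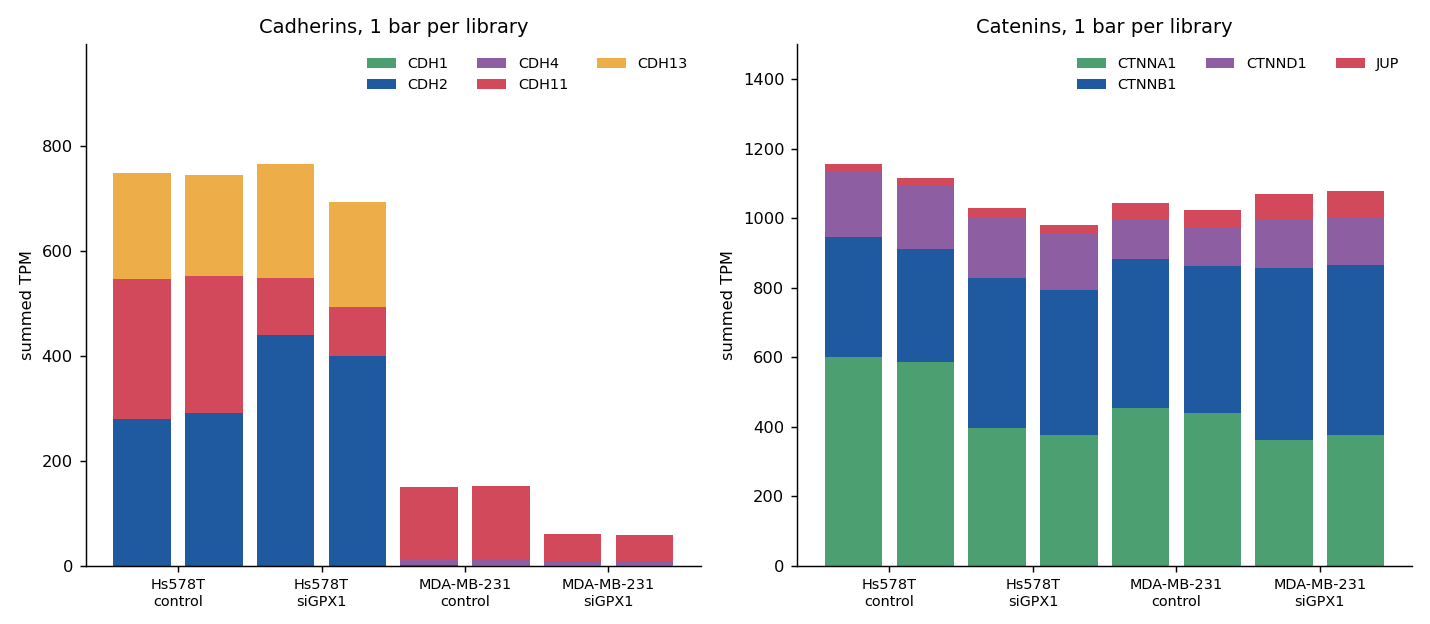
Stacked TPM (vertical axis) of the 5 cadherins (left) and 4 catenins (right), 1 bar per library, 2 libraries in each of the 4 groups. The cadherin stack stays between 694.09 and 765.13 TPM in all Hs578T libraries with less CDH11 and more CDH2 after depletion, and it drops from 150.64 and 151.88 to 59.82 and 58.27 TPM in MDA-MB-231. The catenin stacks average 1006 to 1135 TPM in the 4 groups.

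The summed catenins came to a mean of 88.6% of control in Hs578T (1135 to 1006 TPM) and 103.9% in MDA-MB-231 (1034 to 1074 TPM). The ratio of α-catenin to β-catenin transcript went from 1.76 ± 0.04 to 0.914 ± 0.016 in Hs578T and from 1.06 ± 0.01 to 0.748 ± 0.020 in MDA-MB-231 (SD, n = 2). The ratio of β-catenin to plakoglobin went from 16.5 ± 0.3 to 14.9 ± 0.07 and from 8.35 ± 0.30 to 6.46 ± 0.04. Catenin transcripts per cadherin transcript, over all 9 members, went from 1.52 ± 0.03 to 1.38 ± 0.05 in Hs578T and from 6.83 ± 0.14 to 18.2 ± 0.4 in MDA-MB-231. In both lines α-catenin thus ended below β-catenin, and in MDA-MB-231 the catenins outnumbered the cadherins further. Transcript ratios say nothing of the proteins, which were not measured.

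Other genes of the same structures were counted from lists chosen beside the members. As a yardstick for every list below, depletion of Hs578T cells left 28.6% of all tested genes called higher and 22.1% called lower. For MDA-MB-231 cells the corresponding shares were 20.7% and 21.9%. Whether any list departed from these shares was not tested. Of 5 tested further cadherins of the CDH series, of 18 listed in the tables, CDH3 (P-cadherin) rose in Hs578T, from 5 to 22 counts (log2 2.20 ± 0.66, adjusted p = 0.0110). The call was lost with DESeq2, with the filter of 5 CPM, with the line fitted alone and without Hs578T control library 1 or siGPX1 library 1. In MDA-MB-231 edgeR and DESeq2 called 0 of the 5 in either direction, and 1 (CDH15) was lower at an unadjusted p under 0.05. Most of the 5 could hardly be called there. In controls and after depletion CDH6 and CDH18 had 0 counts, CDH15 had 3 and 0, and CDH3 had 14 and 15. Only CDH24, whose 3′ UTR holds a 7-base match, had ample counts (546 and 443, log2 -0.22 ± 0.11, adjusted p = 0.136). CDH24 read 13.6 TPM in MDA-MB-231 controls and 11.8 after depletion, and is not part of the sum over 5 cadherins. In Hs578T it was not called either (adjusted p = 0.492). CDH6, a cadherin of kidney and neural crest, had 6565 counts in Hs578T controls (70.7 TPM) and 0 in MDA-MB-231 controls, and read 65.1 TPM after depletion in Hs578T. Hs578T thus carried a further abundant cadherin that was not detected in the MDA-MB-231 controls.

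Of 5 tested desmosomal cadherins and partners, 3 rose in each line with edgeR and with DESeq2. Both tools called 0 lower; at an unadjusted p under 0.05 edgeR had 1 lower in Hs578T (DSP) and 0 in MDA-MB-231. PERP, a desmosomal membrane protein, rose by log2 0.89 ± 0.04 in Hs578T and 0.47 ± 0.04 in MDA-MB-231, and DSG2, a desmosomal cadherin, by 0.49 ± 0.04 and 0.43 ± 0.04. DSC3, another desmosomal cadherin, rose in Hs578T (0.59 ± 0.11) and had 0 counts in MDA-MB-231. DSP, desmoplakin, which ties desmosomes to keratin filaments, rose in MDA-MB-231 (0.47 ± 0.05) and had a log2 change of -0.12 ± 0.05 in Hs578T (adjusted p = 0.0597). The list median was 0.49 in Hs578T and 0.43 in MDA-MB-231, beside 0.04 and 0 over all tested genes. With DESeq2 size factors, the filter of 5 CPM, the replicate block, Hs578T fitted alone, or without Hs578T siGPX1 library 1 or any 1 MDA-MB-231 library, 1 gene was called lower in Hs578T.

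Nectins and actin linkers of the adherens junction moved both ways, with 6 of 14 higher and 4 lower in Hs578T and 4 higher and 4 lower in MDA-MB-231. ACTN1, an α-actinin that crosslinks actin, fell from 478 to 282 TPM in Hs578T (log2 -0.71 ± 0.04) and from 424 to 236 TPM in MDA-MB-231 (-0.85 ± 0.04). VCL, vinculin, which binds α-catenin under tension, rose by 0.23 ± 0.04 and 0.38 ± 0.04, and LIMA1, an actin-bundling protein that binds α-catenin, by 0.33 ± 0.04 and 0.51 ± 0.04. The 4 lower calls in MDA-MB-231 became 1 with DESeq2, with its size factors, with the filter of 5 CPM and on both TPM scales, and 1 or 2 without any 1 MDA-MB-231 library. VEZT, vezatin, rose in Hs578T (0.57 ± 0.06), with 0.10 ± 0.05 in MDA-MB-231 (adjusted p = 0.132). Between the control lines PLEKHA7, which binds p120-catenin at the zonula adherens, had 0 counts in Hs578T and 1612 in MDA-MB-231.

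Of 5 tested relatives of the α-catenin, p120 and plakophilin families, 1 rose and 2 fell in Hs578T and 2 rose in MDA-MB-231, where 0 fell with edgeR, with DESeq2 and at an unadjusted p under 0.05. CTNNAL1, an α-catenin-like protein, fell from 106 to 71.7 TPM in Hs578T (log2 -0.51 ± 0.04) and rose from 392 to 445 TPM in MDA-MB-231 (0.18 ± 0.03). PKP3, a plakophilin, rose in Hs578T (0.86 ± 0.13), and PKP2, another, rose in MDA-MB-231 (0.35 ± 0.07) and had 1 count in the Hs578T controls against 1002 in MDA-MB-231 controls. The 2 lower calls in Hs578T became 1 without Hs578T control library 1, and the 2 higher calls in MDA-MB-231 became 1 on the log2(TPM + 0.1) scale.

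Of 9 genes of the complex that marks β-catenin for degradation, 5 rose and 3 fell in Hs578T, and 1 rose and 1 fell in MDA-MB-231. The shares over all tested genes were 28.6% and 22.1%, and 20.7% and 21.9%. Whether the counts differ between the lines was not tested. The 1 higher call in MDA-MB-231 became 4 with DESeq2 size factors or the filter of 5 CPM, and 2 without Hs578T siGPX1 library 1 or 2, MDA-MB-231 control library 2 or MDA-MB-231 siGPX1 library 1. Its 1 lower call became 2 without either Hs578T siGPX1 library. AMER1, a Wnt regulator that binds β-catenin and whose 3′ UTR holds a 7-base match, fell in both (-0.75 ± 0.15 and -1.18 ± 0.12). BTRC, the F-box protein that recognises phosphorylated β-catenin, rose in both (0.67 ± 0.06 and 0.43 ± 0.05). AXIN1, the scaffold of the complex, rose from 10.6 to 18.8 TPM in Hs578T (0.88 ± 0.09) and read 20.1 and 22.6 TPM in MDA-MB-231 (0.15 ± 0.07, adjusted p = 0.110).

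Among 12 tested genes known as β-catenin/TCF targets, 5 rose and 4 fell in Hs578T and 4 rose and 1 fell in MDA-MB-231, with list medians of 0.14 and 0.09. With DESeq2 3 rose in Hs578T. MYC rose from 66.3 to 140.0 TPM in Hs578T (log2 1.13 ± 0.05) and from 120 to 131 TPM in MDA-MB-231 (0.12 ± 0.04). CD44, the hyaluronan receptor, rose from 605 to 1106 TPM (0.93 ± 0.03) and from 634 to 718 TPM (0.19 ± 0.03). CCND1, cyclin D1, fell in both lines, by 0.61 ± 0.04 and 0.27 ± 0.03 on the log2 scale. DKK1, a secreted Wnt inhibitor, fell from 12.3 to 5.07 TPM in Hs578T (-1.21 ± 0.14) and rose from 161 to 185 TPM in MDA-MB-231 (0.19 ± 0.05). Of 13 nuclear partners of β-catenin 4 rose and 5 fell in each line; TLE3, a corepressor, rose in both (0.65 ± 0.05 and 0.35 ± 0.05), and PYGO2 (-0.44 ± 0.08 and -0.55 ± 0.06) and BCL9 (-0.55 ± 0.08 and -0.52 ± 0.07), coactivators, fell in both. The 3′ UTRs of TLE3, which rose, and of PYGO2, which fell, hold a 7-base match, and that of BCL9 holds none. The 5 lower partners in MDA-MB-231 became 2 with DESeq2 and 2 or 3 without any 1 MDA-MB-231 library, and the 4 higher in Hs578T became 2 with DESeq2 or without Hs578T siGPX1 library 1.

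Of 8 genes of cadherin processing and turnover, 4 rose and 2 fell in Hs578T and 2 rose and 2 fell in MDA-MB-231. ADAM10, the protease that sheds the extracellular part of E-cadherin and N-cadherin, rose from 69.1 to 143.6 TPM in Hs578T (log2 1.11 ± 0.04) and from 152 to 221 TPM in MDA-MB-231 (0.53 ± 0.04). NCSTN, nicastrin, a subunit of γ-secretase, which cuts the stub left after shedding, and one whose 3′ UTR holds a 7-base match, fell in both (-0.83 ± 0.05 and -0.35 ± 0.04). The 4 higher calls in Hs578T became 2 with DESeq2. The 2 lower calls in Hs578T became 1 without Hs578T control library 2, and those in MDA-MB-231 became 1 with DESeq2, with the filter of 5 CPM or without any 1 MDA-MB-231 library.

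Among 8 tested genes listed as transcriptional regulators of E-cadherin, 4 rose and 1 fell in Hs578T (28.6% and 22.1% over all tested genes). In MDA-MB-231 3 fell (21.9% over all tested genes), which were ZEB1, ZEB2, whose 3′ UTR holds a 7-base match, and ESRP2. ESRP2 is a splicing factor and not a transcriptional regulator, so this count mixes kinds of gene. TWIST1 and TWIST2 had 0 counts in MDA-MB-231 and could not be called there. SNAI1 (Snail), a repressor of CDH1, rose from 4.54 to 11.5 TPM in Hs578T (log2 1.39 ± 0.18) and read 3.63 and 5.21 TPM in MDA-MB-231 (0.51 ± 0.21, adjusted p = 0.0605). ZEB1, another repressor, fell in both (-0.25 ± 0.05 and -0.19 ± 0.05). TWIST2 rose from 13.3 to 28.8 TPM in Hs578T (1.14 ± 0.17) and had 0 counts in MDA-MB-231, where TWIST1, whose 3′ UTR holds a 7-base match, also had 0 counts against 233 in the Hs578T controls. In MDA-MB-231 edgeR and DESeq2 called 0 higher, with 1 (SNAI1) at an unadjusted p under 0.05. The 3 lower calls there became 0 with DESeq2, on the log2(TPM + 0.1) scale and without any 1 MDA-MB-231 library, and the 1 lower call in Hs578T became 2 without Hs578T control library 2 or any 1 MDA-MB-231 library.

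Of 12 tested non-clustered protocadherins and atypical cadherins, 4 rose and 5 fell in Hs578T and 3 rose and 2 fell in MDA-MB-231. FAT1, a giant atypical cadherin, rose in both (0.19 ± 0.04 and 0.53 ± 0.04). FAT3, whose 3′ UTR holds a 7-base match, fell in both, from 1.99 to 0.745 TPM (-1.37 ± 0.15) and from 0.250 to 0.120 TPM (-1.04 ± 0.31). PCDH7, a protocadherin, fell in both (-0.53 ± 0.06 and -0.43 ± 0.14), and PCDH18 rose in Hs578T (0.53 ± 0.06), where it read 32.9 TPM in the controls against 0.060 in MDA-MB-231. The 2 lower calls in MDA-MB-231 became 0 without MDA-MB-231 control library 1 and 1 without siGPX1 library 1, and the 4 higher calls in Hs578T became 2 and 1 on the 2 TPM scales.

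**Figure D4:**
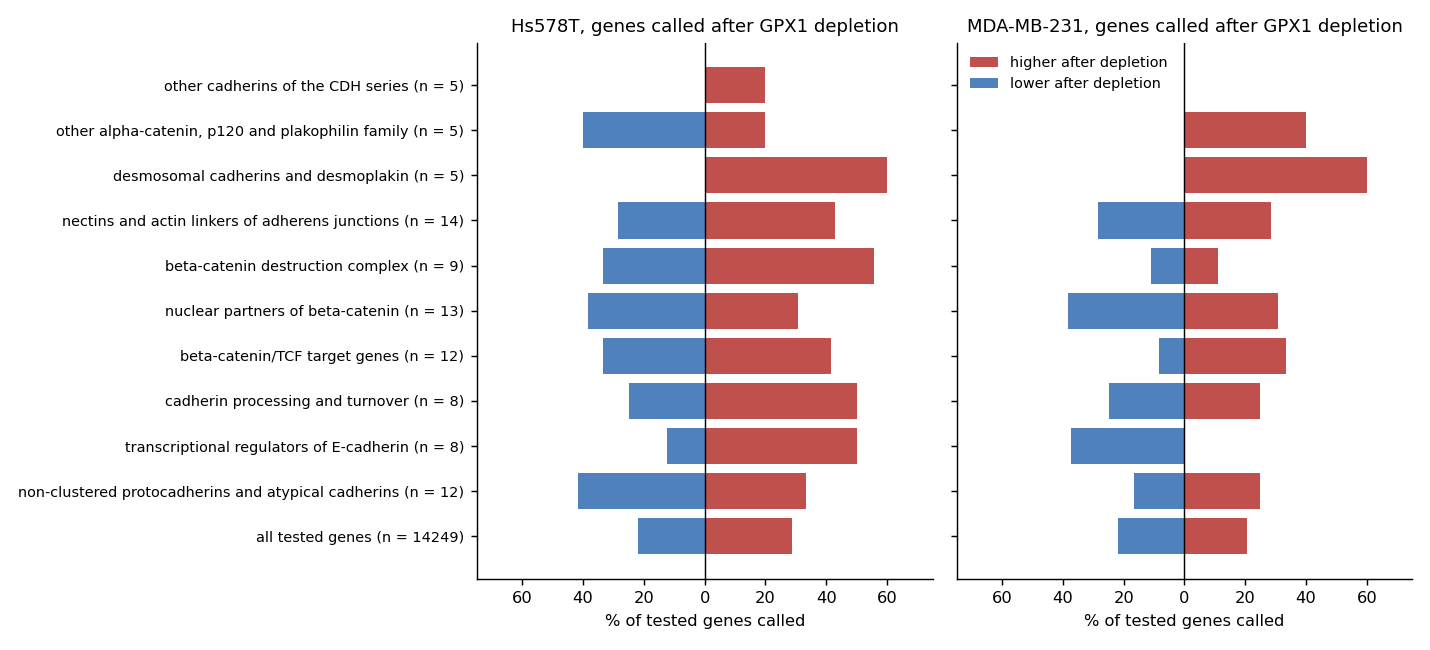
Share of tested genes called higher (right, red) and lower (left, blue) after depletion, in percent, for each list and for all tested genes, in Hs578T (left panel) and MDA-MB-231 (right panel). The desmosomal list, 3 of 5 higher and 0 lower, is on the higher side in both lines (1 lower in Hs578T with DESeq2 size factors), beside 28.6% and 20.7% higher over all tested genes; the nuclear partners of β-catenin have 4 higher and 5 lower in each.

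Over the listed genes that are not members, 17 held a 7-base match and 74 did not. The 7-base sequences were picked on these same libraries for lower expression, so the counts below are not independent evidence. Of the 17, Hs578T had 9 lower and 2 higher, and MDA-MB-231 had 6 lower and 3 higher. Of the 74, Hs578T had 17 lower and 35 higher, and MDA-MB-231 had 12 lower and 20 higher. Members with a match were 3, of which 2 fell in Hs578T (CDH4 was at the floor there) and 3 fell in MDA-MB-231. The matches are shown because these 3 fell in MDA-MB-231, so that count was fixed in advance. Of the 6 members without a match 1 fell (CTNND1) and 4 rose in Hs578T, and 5 rose in MDA-MB-231; CDH13 was at the floor there.

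**Figure D5:**
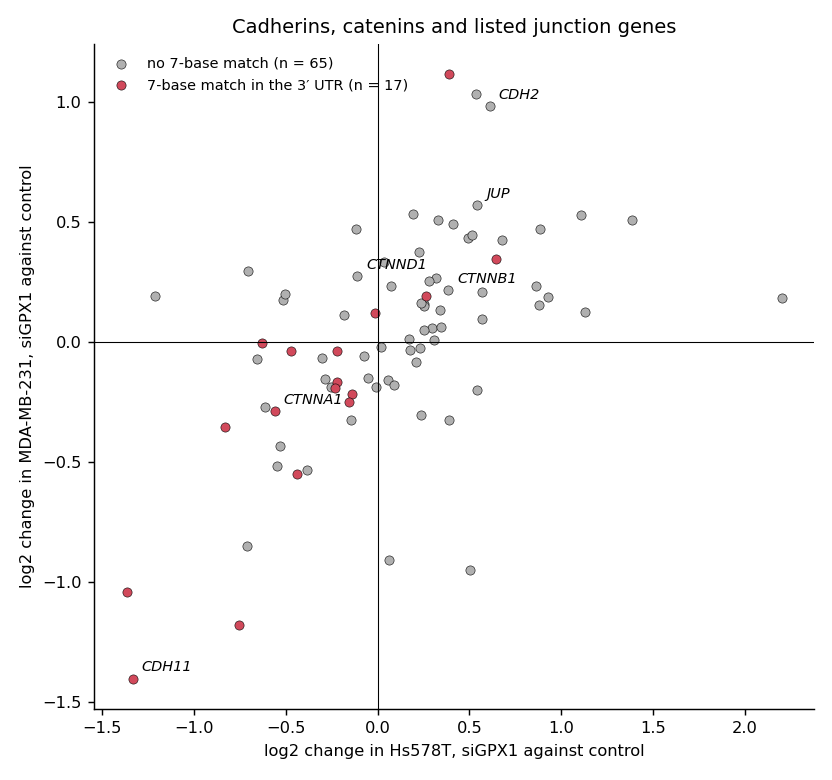
Log2 change after depletion in Hs578T (horizontal axis) against that in MDA-MB-231 (vertical axis) for 82 members and listed genes with over 3 counts in every group; red points (17) have a 7-base match in a 3′ UTR and grey points (65) have none, and members are named. CDH11 lies at the lower left, at -1.33 and -1.40, and CDH2 and JUP at the upper right. The 7-base sequences were picked on these same libraries, so the place of the red points is not independent evidence.

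As a description, the tested gene whose profile over the 8 libraries lay nearest to that of a member was found among 13224 genes, by the root mean square difference of centred log2 CPM. CDH11 was nearest to IMPAD1 (0.10), CTNNA1 to MGST3 (0.03), CTNNB1 to USP19 (0.03), CTNND1 to HMGCS1 (0.06) and JUP to MVB12B (0.02). CDH2 was nearest to DPYSL3 (0.24), CDH1 to PLD5 (0.33) and CDH13 to CDH6 (0.40). These distances cannot be compared between members, because they tend to grow with the size of a profile. The SD of the profile was 0.18 to 0.73 for the catenins and 1.64, 4.83 and 5.83 for CDH1, CDH2 and CDH13. With a prior count of 0.5 in place of 2, CDH13 was nearest to PDGFRA, and the other members named here kept the same nearest gene.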

How the data were processed

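Gene-level tables of 8 RNA-seq libraries were used. Per the submitters' processing notes the authors ran FastQC and RSEM 1.2.12 against hg19; the aligner and annotation were not given in the sources at hand. The tables also hold FPKM values made by the authors, which were not tested. RSEM's deposited expected counts (94.7 to 94.9% whole within 0.005) were rounded and tested; the deposited TPM values of the authors, scaled per transcript length and to a fixed total per library, gave levels.

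With edgeR 4.0.16 (R 4.3.3), filterByExpr over the 4 groups kept 14249 genes, TMM factors ran from 0.893 to 1.09, and a quasi-likelihood F test with 1 mean per group over all 8 libraries (4 residual degrees of freedom, biological coefficient of variation 0.0342) gave the depletion effect in each line, their difference and the control lines. Benjamini-Hochberg adjustment ran over all tested genes. CPM uses the TMM-scaled library total. Counting intervals cover counting error only. Alternatives were DESeq2 1.42.0, its size factors in edgeR, no filter, at least 5 CPM in 2 libraries, a replicate block, limma 3.58.1 on log2(TPM + 1) and log2(TPM + 0.1), each line alone, and each library left out. On counts simulated from these libraries over 14249 genes, 1.25-, 1.5-, 2- and 4-fold changes were seeded in 50 genes each. They were recovered for 70, 96, 100 and 100% of seeded genes in the Hs578T comparison. In that of MDA-MB-231 they were recovered for 64, 86, 100 and 100%. Of the genes called, 5.67 and 4.89% were not seeded. The simulation gave all genes 1 spread and both lines 1 mean. It seeded only genes with higher counts than CDH1 and CDH2 had in MDA-MB-231. The recovery therefore does not apply to genes at such low counts.

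The members and lists were chosen with earlier results of these data known. Named genes are all 9 members, GPX1, the nearest profile of each member, and at most 4 genes with the smallest p per list in the depletion comparisons and 4 between the controls; a few that this rule names are not reported here. EPCAM, KRT18, CLDN3 and CLDN7 come from the marker lists. The 3′ UTRs are those of GENCODE 29 on GRCh38; since the counts used hg19, only sequences were joined, by transcript accession or, for JUP, by symbol.

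Marker lists gave these summed CPM ranges, control then depleted: basal epithelial for Hs578T 99.5–109 and 144–173, for MDA-MB-231 33.1–35.1 and 35.3–36.0; endothelial 17.8–18.2 and 28.1–31.5, and 47.8–48.0 and 42.3–42.4; leukocyte 87.0–88.5 and 58.7–62.5, and 126–131 and 122–127, with CD3E and MS4A1 at 0 counts in every group.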

Additional observations from a re-analysis of the deposited data

Results flagged for a closer look

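For each gene here the test of the difference between the lines passed in edgeR as reported (adjusted p under 0.05). Differences are MDA-MB-231 minus Hs578T on the log2 scale. Among the members they were 0.27 for CTNNA1, -0.17 for CTNNB1 and 0.39 for CTNND1. Of these, CTNNA1 fell less and CTNNB1 rose less in MDA-MB-231, and CTNND1 changed direction. The CTNNB1 difference was lost with DESeq2 (adjusted p = 0.238), with its size factors (0.150), with the filter of 5 CPM (0.386), on both TPM scales (0.170 and 0.183) and on leaving out any of 5 libraries (0.189 to 0.520), and its size fell to between -0.12 and -0.07.

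Among the listed genes named in the text, the difference was 1.41 for DKK1, which fell in Hs578T and rose in MDA-MB-231. CTNNAL1 (0.69) also changed direction. Differences toward MDA-MB-231 were further seen for DSP (0.59), TLE1 (0.59), NCSTN (0.48), CCND1 (0.34), FAT1 (0.34) and LIMA1 (0.18). Differences toward Hs578T were -1.01 for MYC, -0.88 for SNAI1, -0.74 for CD44, -0.73 for AXIN1 and -0.63 for PKP3. Smaller ones were -0.58 for ADAM10, -0.47 for VEZT, -0.41 for PERP, -0.30 for TLE3, -0.24 for CSNK1A1 and -0.20 for TCF3. The median difference over all tested genes was -0.06. Unlike those of the members, the differences of these listed genes were not rerun one by one under the other settings. Nearest the threshold were TCF3 (adjusted p = 0.0449), LIMA1 (0.0434) and SNAI1 (0.0415). Over all genes the difference shifted toward MDA-MB-231 by a median of 0.06 with DESeq2 and 0.10 with the filter of 5 CPM.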

How the results depend on the processing

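Of the log2 changes of members above the floor and of GPX1, 237 under other settings and 248 with a library left out kept their direction and side of the threshold, 14 and 24 lost a call and 1 gained one (the GPX1 difference between the lines, -0.30 on log2(TPM + 1)); none reversed, and the lost calls stand beside their genes above. Among members at the floor, CDH1 in Hs578T and CDH13 in MDA-MB-231 were each called higher without their line's siGPX1 library 2, and the CDH4 difference between the lines was called on both TPM scales. CDH1 was not tested with the filter of 5 CPM and had no adjusted p in MDA-MB-231 with DESeq2, which left 4 members higher there in both settings. Members higher in Hs578T were 2 with limma on log2(TPM + 0.1). Members with a lower change in MDA-MB-231 than in Hs578T were 0 with DESeq2 size factors, with DESeq2 and with the filter of 5 CPM, where CTNNB1 was lost. Over all genes, DESeq2 called 1937 lower in MDA-MB-231 in place of 3116. Genes with a higher change in MDA-MB-231 were 1684 with the filter of 5 CPM in place of 900, and those with a lower change, 1528 in the reported test, were 1000 with DESeq2 size factors, 543 with DESeq2, 797 with the filter of 5 CPM and 994 and 804 on log2(TPM + 1) and log2(TPM + 0.1). The share of higher among called genes was 58.9% with the filter of 5 CPM in place of 48.6% in MDA-MB-231; in the difference between the lines it was 55.6, 57.5, 67.9, 53.5 and 53.6% under those 5 settings in place of 37.1%. The all-gene median moved by 0.10 in the difference with the filter of 5 CPM, and by 0.13 and 0.14 between the controls on the 2 TPM scales. The causes were not tested.

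Leaving out 1 library gave 3 to 5 members higher and 2 to 3 lower in Hs578T, 3 to 5 and 3 to 3 in MDA-MB-231, 2 to 2 and 0 to 1 in the difference, and 4 to 4 and 5 to 5 between the controls. MDA-MB-231 had 3 higher without its control library 1 or 2. Over all genes the ranges were 3315 to 3695 and 2729 to 3480 in Hs578T, 2787 to 3308 and 2033 to 3324 in MDA-MB-231, 693 to 1164 and 513 to 1573 in the difference, and 5505 to 6242 and 5284 to 5834 between the controls. The summed cadherins ranged from 93.0 to 102.5% of control in Hs578T and from 38.5 to 39.5% in MDA-MB-231. List counts moved by over 1.5 times in 77 alternative and 74 left-out values, and stayed within it in 523 and 566. Where a group was left with 1 library, it was assumed to vary like the others.

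Same-numbered libraries did not deviate together (correlations -0.06 to 0.07), so the numbers were not taken to pair them. With the replicate block the member counts were 4 higher and 3 lower in Hs578T, 5 and 3 in MDA-MB-231, 2 and 1 in the difference and 4 and 5 between the controls. Depth limits CDH1 and CDH2 in MDA-MB-231 (at most 28 counts a library) and leaves CDH1 and CDH4 in Hs578T and CDH13 in MDA-MB-231 at the floor of 3 counts.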
